A study of Mus musculus with 6 samples.

Results

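A set of 39 genes had a higher level in each of the 3 LPC day 10 libraries than in any LPC day 3 library. They were selected on their CPM, a gene's count per 1000000 counts of its library's column. A gene was taken where its lowest day 10 CPM was at least 10 and at least 2 times its highest day 3 CPM, leaving out symbols that begin with Gm or mt- or end in Rik. The rule took 39 of the 17314 genes with a kept symbol (0.225%), and 39 of the 3210 that reached 10 CPM in every day 10 library (1.21%). Since the same 6 libraries chose the genes, their levels and differences between the time points are a description, with no test.

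The RNA came from sorted microglia, macrophages that reside in the brain, of lesions made by injecting lysolecithin (LPC), a lipid that strips myelin from axons. The LPC day 10 group and the LPC day 3 group held 3 libraries each, and the design text gives 3 mice per time point. All animals were male C57BL/6J, aged 10 weeks, and all had received 2 µl of 1% LPC in the corpus callosum, a white matter tract. Live cells positive for CD11b, low for CD45 and negative for Ly6G and CD3 were sorted, and polyadenylated RNA was amplified (NuGEN Ovation) and read as pairs of 100 bp. No uninjured or vehicle-injected library is in the sample list, so a difference is between a late and an early lesion only.

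After myelin is lost, microglia take up its debris, divide, and then change as new oligodendrocytes form and wrap the axons again. Some general pathways set the life of proteins and membranes. Ubiquitin ligases and deubiquitinases mark proteins or clear the marks, chaperones fold proteins, and autophagy and endosome traffic carry cargo to lysosomes. Transcription repressors and tRNA or ribosome factors act earlier, on how much RNA and protein is made. Members of all these systems are among the 39 genes, and whether they have a part in such a change was not tested.

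The libraries held 6633766, 9021700 and 5890081 counts at day 10, against 9093567, 7005939 and 9212197 at day 3, in the order of replicates 1, 2 and 3, which is kept in all lists of values below. Mitochondrial ribosomal RNA took 9.32, 32.9 and 14.5% of the counts at day 10, against 27.1, 30.4 and 31.8% at day 3, and with mitochondrial genes left out of the totals 24 of the 39 genes still met the rule. LPC day 10 replicate 3 stood apart: it was the highest day 10 library for 31 of the 39 genes (79.5%), against 44.7% of the 3210 genes. Summed over the 39 genes, the level was 1725, 1439 and 5785 CPM at day 10, against 403.6, 296 and 216 CPM at day 3, so values with and without that library are both given. The 27 homeostatic microglia genes summed to 37380, 23380 and 43340 CPM at day 10, against 35210, 32280 and 29340 CPM at day 3. Other lists differed in that library. The 33 damage-associated microglia genes summed to 37240, 25160 and 7598 CPM at day 10, against 16520, 12460 and 15450 CPM at day 3. For the 29 cell death genes the sums were 2344, 2177 and 3684 CPM at day 10, against 2337, 2711 and 2303 CPM at day 3. Replicate 3 was thus the lowest day 10 library for the former and the highest for the latter. Only 3 of the 8 listed T cell genes are in the table, none of them a Cd3 gene, and they summed to at most 0.11 CPM in any library.

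None of the 39 genes is in the 15 marker lists of other cells. The endothelial genes (7 of 8 listed are in the table) summed to 97.1, 97.4 and 10.7 CPM at day 10, against 28.8, 4.14 and 21.1 CPM at day 3. In day 10 replicates 1 and 2 most of that was Flt1, a VEGF receptor gene. Kdr had 16.4, 14.6 and 9.34 CPM at day 10, against 0.88, 0 and 0.76 CPM at day 3. Pecam1 had 2.41, 6.32 and 0.34 CPM at day 10, against 8.25, 1.71 and 0 CPM at day 3. Cdh5 had 0, 0.222 and 0.17 CPM at day 10, against 7.04, 0.143 and 9.66 CPM at day 3. Cldn5, Tek and Esam were at 0 throughout. The oligodendrocyte genes (6 of 8) summed to 164.5, 74.4 and 9.85 CPM at day 10, against 38.4, 26.7 and 24.3 CPM at day 3. Most of that was Mbp and Cnp, with Cldn11 at 0 throughout. Mbp had 89.7, 42.7 and 8.32 CPM at day 10, against 0.99, 10.3 and 0.217 CPM at day 3. The 8 oligodendrocyte progenitor genes summed to 151.9, 35.4 and 1.19 CPM at day 10, against 14.9, 0.999 and 1.3 CPM at day 3. Nearly all of it was Cspg4, with Pdgfra, Sox10, Olig1, Olig2 and Gpr17 at 0. These 3 sums were high in day 10 replicates 1 and 2, while most of the 39 genes were highest in replicate 3; their part in the result was not tested. The dendritic cell genes summed to 28.8, 6.32 and 143.1 CPM at day 10, against 8.58, 42 and 17.3 CPM at day 3, with 143 CPM of the replicate 3 value from Itgae and with Flt3, Zbtb46 and Clec9a at 0 there. B cell genes (6 of 8) had the largest sums of these lists, 485.7, 479.2 and 431.7 CPM at day 10, against 643.4, 567.8 and 737.6 CPM at day 3, mostly Ighm. Astrocyte genes (7 of 8) summed to 97.4, 63.2 and 26.1 CPM at day 10, against 35.6, 128.9 and 95.3 CPM at day 3, mostly Slc1a3. Border macrophage genes (7 of 8) summed to 8.74, 7.43 and 3.91 CPM at day 10, against 27.3, 93.6 and 80.9 CPM at day 3. The neutrophil genes (6 of 8) summed to 0.151, 0.111 and 0.17 CPM at day 10, against 0, 0.143 and 99.9 CPM at day 3, so nearly all of it was in LPC day 3 replicate 3, mostly as S100a8, Ngp and S100a9. That library was also the lowest at day 3 for 24 of the 39 genes, beside 1329 of the 3210. The median log2 fold change of the 39 was 3.68 without it and 3.59 with it. Both medians come from libraries that chose the genes, and the part of neutrophil RNA in the result was not tested. In bulk RNA, fewer cells of a type and less RNA per cell cannot be told apart.

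**Figure D1:**
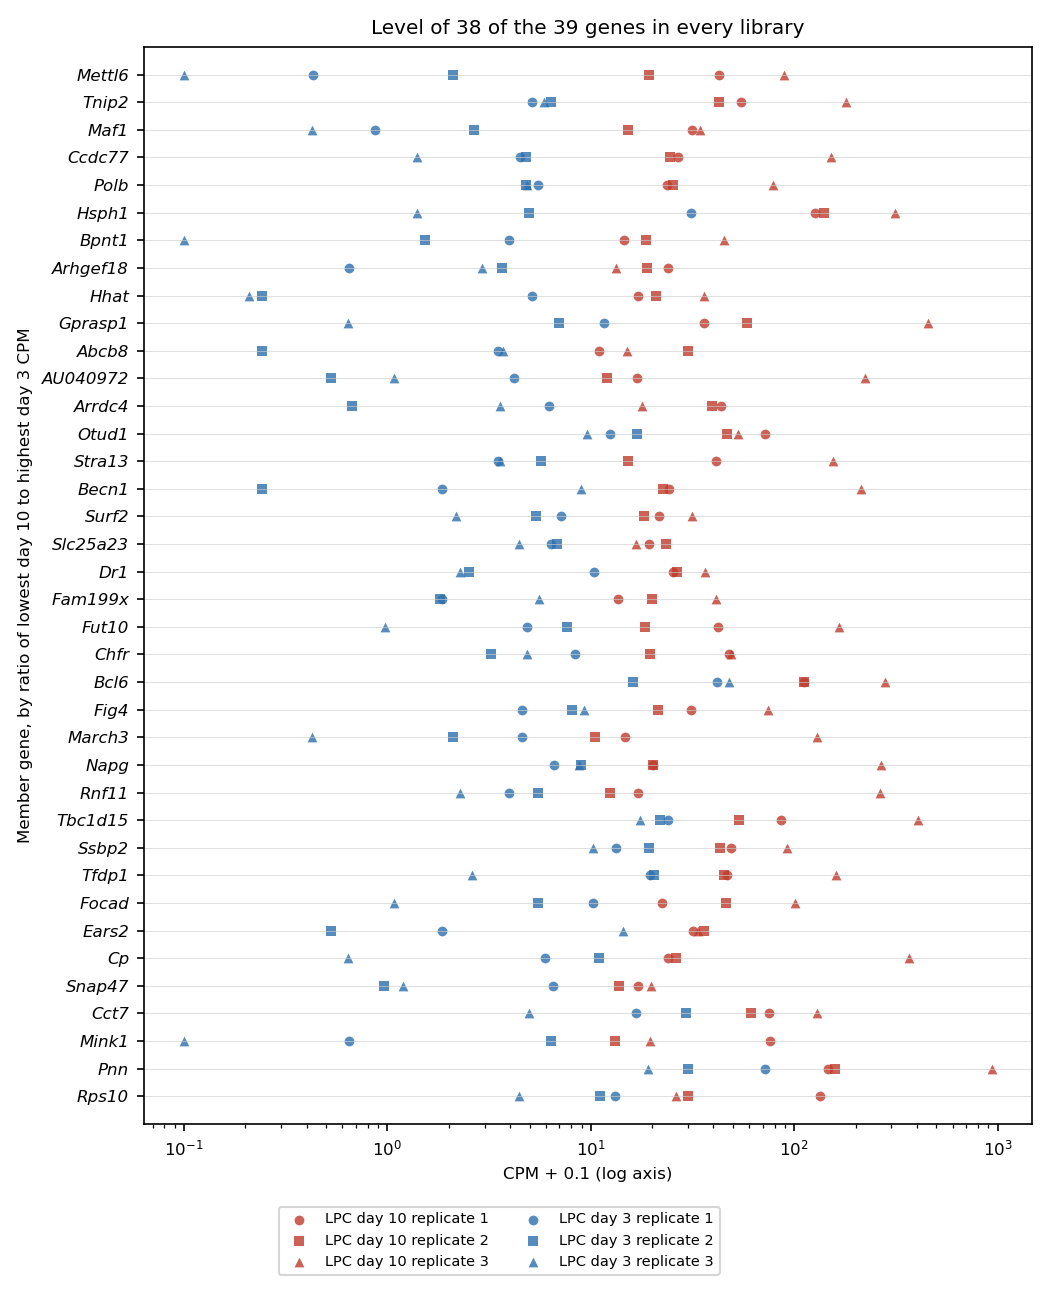
Level of 38 of the 39 genes in all 6 libraries, as CPM plus 0.1 on a log axis, with LPC day 10 in red, LPC day 3 in blue and replicates 1, 2 and 3 as circles, squares and triangles. Genes run by the ratio of lowest day 10 to highest day 3 CPM, with Mettl6 on top and Rps10 at the bottom, and the red triangle lies farthest right in most of them.

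Proteins that attach, edit or remove ubiquitin were encoded by Tnip2, Rnf11, Otud1, Chfr and March3. Tnip2 (chr5:34496087-34513991 in GRCm38, as are all positions here) encodes a partner of A20, the enzyme that edits ubiquitin chains and damps NF-kappaB signalling, and had 54.7, 42.7 and 179 CPM at day 10, against 5.06, 6.28 and 5.75 CPM at day 3. Its 3 day 3 values lay close together, and even the lowest day 10 library was well above them. Rnf11, which encodes a RING finger protein of the same A20 complex, had 16.9, 12.3 and 265 CPM at day 10, against 3.85, 5.42 and 2.17 CPM at day 3. Here day 10 replicate 3 stood far above both other day 10 libraries, which lay nearer to day 3. Without that library the mean day 10 level was 3.83-fold the day 3 mean for Rnf11 and 8.55-fold for Tnip2, against 25.7-fold and 16.2-fold with it.

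The deubiquitinase gene Otud1 had 71.8, 46.3 and 52.6 CPM at day 10, against 12.3, 16.7 and 9.44 CPM at day 3. Its day 10 libraries lay close together, and replicate 1, not replicate 3, was the highest. Chfr, a ubiquitin ligase that delays entry into mitosis under stress, had 47.8, 19.5 and 48.9 CPM at day 10, against 8.25, 3.14 and 4.78 CPM at day 3. March3 encodes a membrane-bound ubiquitin ligase and had 14.6, 10.4 and 129 CPM at day 10, against 4.51, 2 and 0.326 CPM at day 3. It lay just inside the level limit, with replicate 3 far over the other day 10 libraries.

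Transcription and splicing control accounted for 6 genes, all highest in day 10 replicate 3. Maf1, the repressor of RNA polymerase III that limits tRNA synthesis, had 31.4, 15.1 and 34.5 CPM at day 10, against 0.77, 2.57 and 0.326 CPM at day 3. At day 3 these were 7, 18 and 3 counts, and 3 counts correspond to 0.33, 0.428 and 0.326 CPM there. Bcl6 (chr16:23965052-23988852), a zinc finger repressor known to restrain inflammatory genes in macrophages, had 112, 112 and 279.8 CPM at day 10, against 41.6, 16 and 47.8 CPM at day 3. It was 1 of 3 genes over 100 CPM in every day 10 library, with Hsph1 and Pnn, and day 10 replicates 1 and 2 were nearly equal. Dr1, a subunit of the NC2 repressor of TATA-binding protein, had 25.3, 26.5 and 36.5 CPM at day 10, against 10.2, 2.43 and 2.17 CPM at day 3. The 3 day 10 libraries of Dr1 were close to each other.

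Tfdp1, the DNA-binding partner of the E2F factors, had 46.7, 45.1 and 161 CPM at day 10, against 19.4, 20.3 and 2.5 CPM at day 3. Its day 3 replicate 3 was far below the other day 3 libraries, and the highest, replicate 2, lay little under the 2-fold limit. Ssbp2, which stabilises LDB1-containing transcription complexes, had 49, 43 and 92.2 CPM at day 10, against 13.2, 19.3 and 10.1 CPM at day 3. An annotated neighbour, 4833422C13Rik, covers 22.1% of its exon bases. Pnn (pinin), a nuclear protein of RNA splicing, had 147, 158 and 933 CPM at day 10, against 71.4, 30 and 18.9 CPM at day 3. It was the most abundant of the 39 by CPM at day 10, with 413 ± 451 CPM at day 10 and 40.1 ± 27.7 CPM at day 3 (SD, n = 3 each), and its day 10 replicate 3 was the highest value of any of the 39 genes.

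Another 3 of the 39 genes act on tRNA and translation. Mettl6 (chr14:31473578-31495040), a methyltransferase of serine tRNA, had 42.4, 19.2 and 89.3 CPM at day 10, against 0.33, 2 and 0 CPM at day 3. The day 3 values were 3, 14 and 0 counts, and this gene had the largest mean ratio of the 39, 64.8-fold, or 39.6-fold without day 10 replicate 3. Most of its day 3 counts were in replicate 2, and its log2 fold change was 8.55 without that library and 6.37 with it. Ears2, the mitochondrial glutamyl-tRNA synthetase, had 31.5, 35.9 and 33.6 CPM at day 10, against 1.76, 0.428 and 14.3 CPM at day 3. Its day 10 libraries were the closest together of all 39 genes, at 1.14-fold from lowest to highest, while day 3 spread widely. Rps10, a protein of the small ribosomal subunit, had 134, 29.9 and 26.1 CPM at day 10, against 13, 11 and 4.34 CPM at day 3. Only replicate 1 was high at day 10, and the other two were just over the limit.

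Protein folding was represented by Hsph1 and Cct7. Hsph1 (chr5:149614287-149636376) encodes a heat-shock protein that exchanges nucleotides on HSP70 chaperones, and had 126, 139.8 and 314 CPM at day 10, against 30.9, 4.85 and 1.3 CPM at day 3. It was high in every day 10 library and low in day 3 replicates 2 and 3, and day 3 replicate 1 lay between. Cct7, a subunit of the TRiC chaperonin ring that folds actin and tubulin, had 75.2, 61 and 129 CPM at day 10, against 16.5, 29.1 and 4.88 CPM at day 3. Its lowest day 10 library was close to the 2-fold limit over day 3 replicate 2.

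Hsph1 was the only 1 of the 39 genes in the 17 pathway lists, in that of 28 stress-responsive genes. Of the 18 tested genes of that list, 8 had a positive log2 fold change of day 10 over day 3, with a median of −0.31, and edgeR's quasi-likelihood test called none (adjusted p under 0.05, Benjamini-Hochberg). Hsph1 was chosen on these same libraries, so its own test is not read. No other gene there had an unadjusted p under 0.05 in edgeR or a DESeq2 call. The edgeR calls over all 10535 genes tested were 12 higher (0.114%) and 0 lower (0.0%); unadjusted, 501 genes were higher and 145 lower. Among the other genes of the list, the smallest p-values were those of the immediate-early transcription factor genes Egr1 and Atf3. Their log2 fold changes were 1.34 and 2.55, with an adjusted p of 0.999 for both (edgeR). Others of that class were at 1.01 (Junb), −0.38 (Jun) and −0.60 (Fos), none of them called. Over the 17 lists together, 327 genes were tested, with 0 called by edgeR, 28 at an unadjusted p under 0.05, 4 called by DESeq2 and 0 by limma-voom.

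The promoter of Hsph1 is shown because it holds both the heat-shock element core TTCNNGAA, a motif of chaperone genes, and the E-box CACGTG. Capitals mark them in the 300 bases from 250 before to 50 after an annotated start (RefSeq, GRCm38.p6).
Hsph1, chr5:149636287-149636586, minus strand: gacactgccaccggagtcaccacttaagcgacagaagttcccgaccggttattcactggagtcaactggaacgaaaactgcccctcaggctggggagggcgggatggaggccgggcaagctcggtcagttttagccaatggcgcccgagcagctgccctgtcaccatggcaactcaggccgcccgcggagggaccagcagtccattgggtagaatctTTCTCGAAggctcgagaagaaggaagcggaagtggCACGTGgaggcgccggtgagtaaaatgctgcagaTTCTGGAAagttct
It contained 2 heat-shock cores and 1 E-box. That core was added to the motifs after the 39 genes were known. It was found in 2 of the 30 genes with a promoter in the table, Hsph1 and Focad (6.67%), against 8.31% of the tested genes with a promoter.

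Membrane traffic and autophagy held 7 genes: Becn1, Fig4, Tbc1d15, Napg, Snap47, Gprasp1 and Arrdc4. Each gene was placed in 1 role only, though some would fit another, so the size of a role is not a result. Becn1 (beclin 1), a subunit of the lipid kinase that starts autophagosomes, had 24.1, 22.6 and 213 CPM at day 10, against 1.76, 0.143 and 8.79 CPM at day 3. The difference rested on replicate 3 more than for most genes: the mean ratio was 24.3-fold with that library and 6.55-fold without it. The gene Cntd1 covers 43.9% of the exon bases of Becn1 and was itself at no more than 0.111 CPM in any library. Gprasp1, which steers G protein-coupled receptors to lysosomes, had 36, 58.2 and 455 CPM at day 10, against 11.4, 6.85 and 0.543 CPM at day 3. The overlapping gene Armcx5, which covers 5.62% of its exon bases, had 1.96, 12.2 and 86.8 CPM at day 10, against 1.87, 3.85 and 3.58 CPM at day 3, so both were highest in day 10 replicate 3.

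Tbc1d15, a GTPase-activating protein for the late endosome protein RAB7, had 86.1, 53.6 and 405 CPM at day 10, against 23.9, 21.8 and 17.3 CPM at day 3. Fig4, a phosphatase of the PIKfyve complex that sets the lipid of late endosomes, had 31.1, 21.2 and 74.5 CPM at day 10, against 4.51, 7.99 and 9.12 CPM at day 3. For Tbc1d15 the 3 day 3 libraries lay close together, and in both genes replicate 3 led at day 10. Napg, an adaptor that recycles SNARE fusion complexes, had 20.2, 20.2 and 268 CPM at day 10, against 6.49, 8.85 and 8.68 CPM at day 3. Its day 10 replicates 1 and 2 were equal to the first decimal, and replicate 3 was far above them. Snap47, a SNARE protein of the SNAP-25 family, had 16.9, 13.6 and 19.7 CPM at day 10, against 6.38, 0.856 and 1.09 CPM at day 3. Arrdc4, an alpha-arrestin that links cargo to ubiquitin ligases, had 43.4, 39.2 and 17.7 CPM at day 10, against 6.16, 0.571 and 3.47 CPM at day 3. Replicate 3 was its lowest day 10 library, while the other 6 genes of this role were highest there.

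DNA repair and the centromere were represented by Polb and Stra13. Polb, the polymerase of base excision repair, had 23.5, 25.2 and 78.6 CPM at day 10, against 5.39, 4.71 and 4.78 CPM at day 3. Its day 3 values lay close together, far under the lowest day 10 value. Stra13, the gene that GENCODE names Cenpx, encodes a histone-fold protein of the centromere and of the Fanconi anaemia pathway, and had 41.3, 15.2 and 154 CPM at day 10, against 3.41, 5.57 and 3.47 CPM at day 3. Day 10 replicate 2 was its lowest, and replicate 3 its highest by far.

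Mitochondrial transport and metabolism held Abcb8, Slc25a23, Bpnt1 and Cp. Abcb8, an ABC transporter of the inner mitochondrial membrane, had 10.8, 29.8 and 14.9 CPM at day 10, against 3.41, 0.143 and 3.58 CPM at day 3. Bpnt1, which hydrolyses the sulfation by-product PAP, had 14.5, 18.6 and 45 CPM at day 10, against 3.85, 1.43 and 0 CPM at day 3. Slc25a23, a carrier that exchanges ATP-magnesium for phosphate across that membrane, had 19.1, 23.4 and 16.6 CPM at day 10, against 6.27, 6.71 and 4.34 CPM at day 3. Abcb8 was highest in day 10 replicate 2, and Slc25a23 had the smallest mean ratio of the 39, at 3.42-fold. Cp encodes ceruloplasmin, the copper ferroxidase that lets iron leave cells, and had 23.8, 26.1 and 367 CPM at day 10, against 5.83, 10.8 and 0.543 CPM at day 3. Day 10 replicate 3 was again far above the others, and the mean ratio of Cp was 24.2-fold with it and 4.34-fold without it.

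Signalling and modification of proteins or glycans held Arhgef18, Mink1, Hhat and Fut10. Arhgef18, an exchange factor for the GTPase RHOA, had 24, 18.7 and 13.2 CPM at day 10, against 0.55, 3.57 and 2.82 CPM at day 3. Mink1, a STE20-type kinase, had 76, 13.1 and 19.4 CPM at day 10, against 0.55, 6.28 and 0 CPM at day 3. In both genes replicate 1 was the highest at day 10 and replicate 3 no higher than the mean of the other two. Hhat, the enzyme that attaches palmitate to hedgehog proteins, had 16.9, 20.8 and 36 CPM at day 10, against 5.06, 0.143 and 0.109 CPM at day 3. In day 3 replicates 2 and 3 it was under the level of 3 counts. Fut10, annotated as a fucosyltransferase, had 41.9, 18.3 and 166 CPM at day 10, against 4.73, 7.57 and 0.868 CPM at day 3.

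The other 5 genes have roles that are less well defined: Ccdc77, Surf2, Focad, Fam199x and AU040972, the last an antisense RNA and the only 1 of the 39 that is not protein coding. Ccdc77 had 26.8, 24.5 and 152 CPM at day 10, against 4.4, 4.71 and 1.3 CPM at day 3. AU040972 had 16.7, 11.9 and 222 CPM at day 10, against 4.07, 0.428 and 0.977 CPM at day 3, so replicate 3 stood far apart. Surf2 had 21.4, 18.1 and 31.2 CPM at day 10, against 7.04, 5.28 and 2.06 CPM at day 3. Focad, which encodes focadhesin, had 22.3, 46.2 and 101 CPM at day 10, against 10.1, 5.42 and 0.977 CPM at day 3. Fam199x had 13.4, 19.9 and 41.1 CPM at day 10, against 1.76, 1.71 and 5.43 CPM at day 3. All 5 were highest in day 10 replicate 3, with ratios of the means from 4.92 to 45.7.

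The limits of the rule split genes of like levels. Just inside the ratio of 2 were Rps10 (2.01), Pnn (2.06) and Mink1 (2.08). Just outside it, all at 1.98, were Diablo, an antagonist of caspase inhibitors, Chmp1b, an ESCRT-III subunit, Tdrkh and the class I histocompatibility gene H2-T23. H2-T23 had 113.7, 67 and 137.7 CPM at day 10, against 25.1, 13.3 and 33.9 CPM at day 3. Diablo had 20.1, 18.1 and 29.5 CPM at day 10, against 7.37, 9.13 and 0.543 CPM at day 3. Chmp1b had 31.1, 35.8 and 53.8 CPM at day 10, against 9.57, 15.7 and 14.4 CPM at day 3. These 3 were highest in day 10 replicate 3. Tdrkh had 13.3, 37 and 14.8 CPM at day 10, against 6.71, 0.285 and 0.109 CPM at day 3. Just inside the level of 10 CPM were March3, Abcb8, AU040972 and Rnf11, with lowest day 10 values of 10.4, 10.8, 11.9 and 12.3 CPM. The endothelial VEGF receptor gene Kdr lay just outside, with 16.4, 14.6 and 9.34 CPM at day 10, against 0.88, 0 and 0.76 CPM at day 3. It was the 1 listed endothelial gene whose groups did not overlap, with day 10 higher. Rab11fip3, an effector of endosome recycling, had 32.1, 9.2 and 38.4 CPM at day 10, against 2.2, 0.428 and 0.434 CPM at day 3. Ndufv2, a subunit of respiratory complex I, had 7.84, 23.3 and 30.4 CPM at day 10, against 3.41, 0.571 and 1.41 CPM at day 3. Tmem204 had 24.9, 17.8 and 7.3 CPM at day 10, against 1.32, 0.143 and 0.217 CPM at day 3. These 4 were taken from genes that met the ratio of 2, so their groups were apart by that choice. Each missed the level limit in 1 day 10 library.

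**Figure D2:**
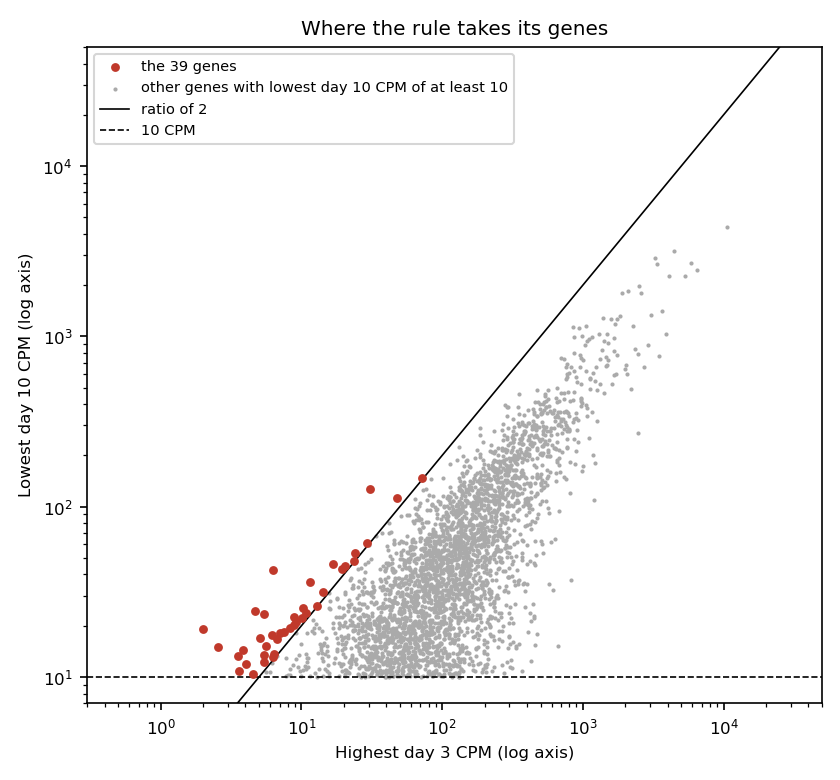
Lowest day 10 CPM against highest day 3 CPM, both on log axes, for the 3210 genes with a lowest day 10 CPM of at least 10 (grey) and the 39 genes (red). The solid line is a ratio of 2 and the dashed line 10 CPM, and most of the 39 genes lie close to the solid line, with a median ratio of 2.47 and a highest of 9.6.

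Each of the 39 genes had a positive log2 fold change of day 10 over day 3 in the edgeR fit, from 1.86 to 6.37 with a median of 3.59, beside a median of 0.00 and a positive share of 49.9% over all genes tested. No overlap between the groups, with day 10 higher, was found in 264 of the 3210 genes (8.22%), of which the 39 are the part past the limits. The rule turned round took 34 of 4046 genes (0.84%). None of the 39 genes was called by edgeR. DESeq2 called 6 of them, among 45 genes higher and 19 lower over the whole table. The authors' deposited table lists a difference of day 3 minus day 10, and in it all 39 were negative, from −6.83 to −1.76 with a median of −3.35. These values come from the libraries that chose the genes and support nothing beyond the choice.

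Per length, the order of levels changed. In the authors' FPKM (fragments per kilobase of exon, scaled to library size), Pnn had 119 ± 129.9 FPKM at day 10 and 11.6 ± 7.97 FPKM at day 3, AU040972 had 80 ± 115 FPKM at day 10 and 1.75 ± 1.88 FPKM at day 3 and Stra13 had 65.2 ± 68.7 FPKM at day 10 and 3.85 ± 1.14 FPKM at day 3 (SD, n = 3 each). These were the 3 highest of the 39 at day 10, and their SD exceeded their differences, so their order is not resolved. At the low end were Fam199x, Hhat and Arhgef18, and Arhgef18 had 2.22 ± 0.639 FPKM at day 10 and 0.276 ± 0.187 FPKM at day 3 (SD, n = 3 each). The median of the 39 genes was 11.3 FPKM at day 10 and 1.09 FPKM at day 3, beside 16.7 FPKM at day 10 for the 3210 genes.

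Within the day 10 group the genes split by library. Replicate 3 over the mean of replicates 1 and 2 had a median of 2.5 in the 39 genes, beside 1.08 in the 3210 genes. It was above 2 in 23 genes, above 5 in 12 and below 1 in 8. Replicates 1 and 2 lay within 1.5-fold of each other in 27 of the 39 genes, and in 1262 of the 3210. Without replicate 3, the ratio of day 10 to day 3 means ran from 2.52 to 39.6 with a median of 6.12, against 3.42 to 64.8 with a median of 9.83 with it. The rule uses the lowest day 10 value only, and replicate 2 gave it in 21 genes, replicate 1 in 14 and replicate 3 in 4.

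**Figure D3:**
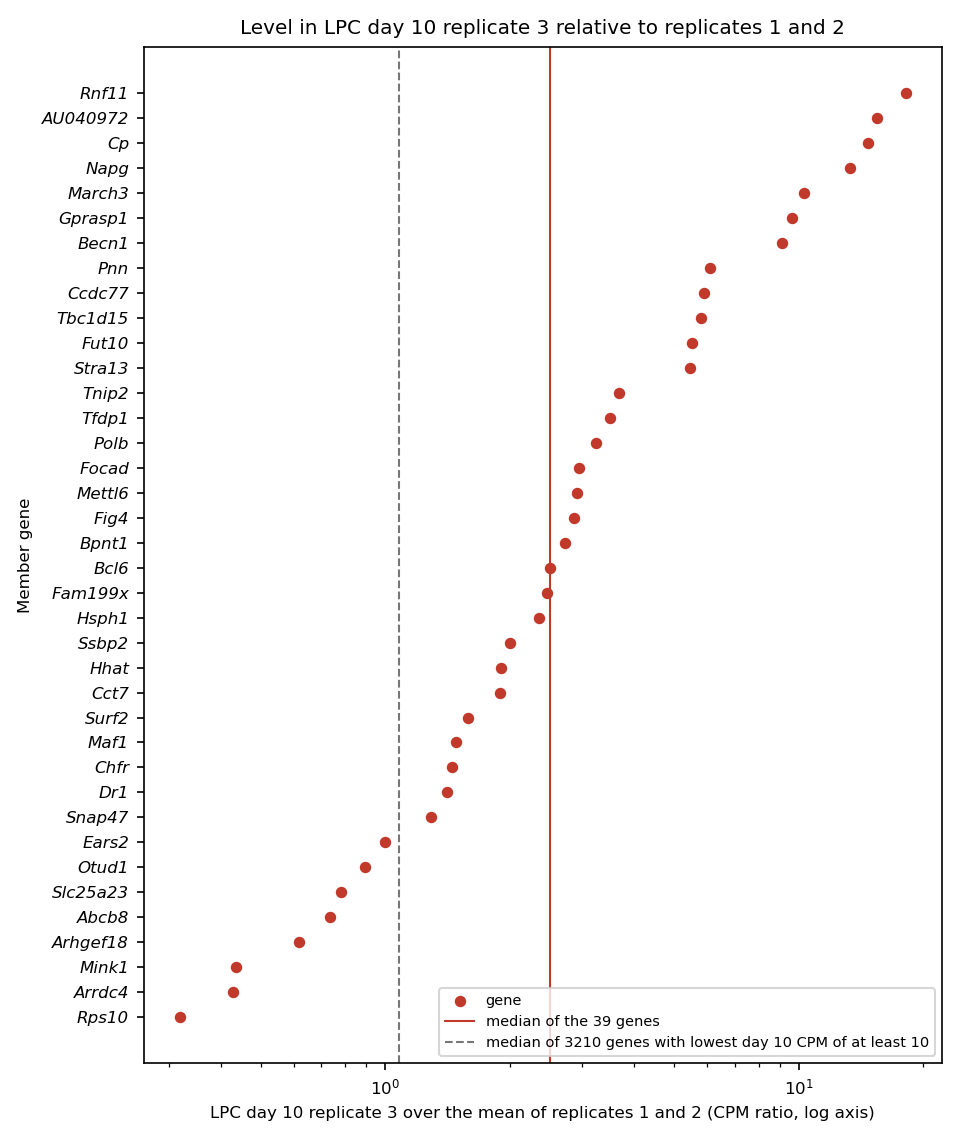
CPM in LPC day 10 replicate 3 over the mean of day 10 replicates 1 and 2, on a log axis, with 1 point per gene for 38 of the 39. The solid line is their median of 2.5 and the dashed line the median of 1.08 over the 3210 genes, and Rnf11, AU040972 and Cp lie farthest right.

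How many genes met the rule depended on the scaling of the libraries. With CPM scaled by the trimmed mean of M-values (TMM) 33 genes passed, 24 of them among the 39, and with the relative log expression (RLE) factors 32 passed, 19 of them among the 39. The TMM factors were 1.45, 1.04 and 0.65 at day 10, against 1.13, 1.02 and 0.891 at day 3. The RLE factors were 1.64, 1.15 and 0.43 at day 10, against 1.22, 1.06 and 0.949 at day 3. LPC day 10 replicate 3 thus had the lowest factor of both kinds. A common set of 18 passed under the column total, TMM, RLE and totals without mitochondrial genes. It holds Hsph1, Tnip2, Tbc1d15, Gprasp1, Otud1, Rnf11, Arrdc4, Ccdc77, Stra13, Chfr, Fut10, Surf2, AU040972, Hhat, Arhgef18, Mettl6, Polb and Maf1. Each of the 39 genes kept day 10 and day 3 apart, with no overlap, under all 3 other scalings. The genes were chosen for a 2-fold gap in the same libraries, which leaves little room for overlap, so this supports nothing beyond the choice.

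Partners of the same complexes were looked at for 13 complexes or families, in lists written after the 39 genes were known. Of 98 partners tested, 50 had a positive log2 fold change of day 10 over day 3, with a median of 0.02. None was called by edgeR, DESeq2 or limma-voom (adjusted p under 0.05), and 2 had an unadjusted p under 0.05 in edgeR, Ambra1 and Vac14 (2.04%, against 6.13% of all genes tested). That the 39 genes lay higher than their partners follows from the choice of the 39, so the partners' own values are what is described.

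Values of this kind are given with their SE. In the A20 complex, where Tnip2 was at 4.40 ± 1.22 and Rnf11 at 5.29 ± 1.33, the A20 gene Tnfaip3 was at 0.58 ± 1.06 and Tnip1 at −2.01 ± 1.90. In the lipid kinase complex of Becn1, which was at 5.03 ± 1.41, the catalytic subunit Pik3c3 was at −0.10 ± 1.14, the regulatory subunit Pik3r4 at 2.04 ± 1.16, Atg14 at −2.52 ± 1.77 and Ambra1, which binds beclin 1, at 2.04 ± 0.93. Fig4 was at 2.85 ± 1.35, its scaffold Vac14 at 2.45 ± 0.98 and the kinase Pikfyve at −0.43 ± 0.98. Vac14 had 146.7, 32 and 606.3 CPM at day 10, against 146.1, 40.2 and 26.6 CPM at day 3, so its groups overlapped and day 10 replicate 3 was its highest library. Without that library the log2 fold change was −0.04 ± 0.83 for Vac14, −0.04 ± 0.74 for Ambra1, 1.33 ± 1.03 for Pik3r4, 1.48 ± 1.44 for Fig4 and 2.31 ± 1.71 for Becn1. The other 7 TRiC subunits lay between −0.63 and 0.83, against 2.68 ± 1.13 for Cct7. The heat-shock partners of Hsph1 lay between −1.24 and 1.24. Arrdc4 was at 3.27 ± 1.61, and the related alpha-arrestin genes Txnip, Arrdc1 and Arrdc3 were at 1.18 ± 0.90, −0.02 ± 1.81 and −0.85 ± 1.73. The 31 other small ribosomal subunit genes lay between −1.06 and 1.80, against 2.58 ± 1.30 for Rps10.

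**Figure D4:**
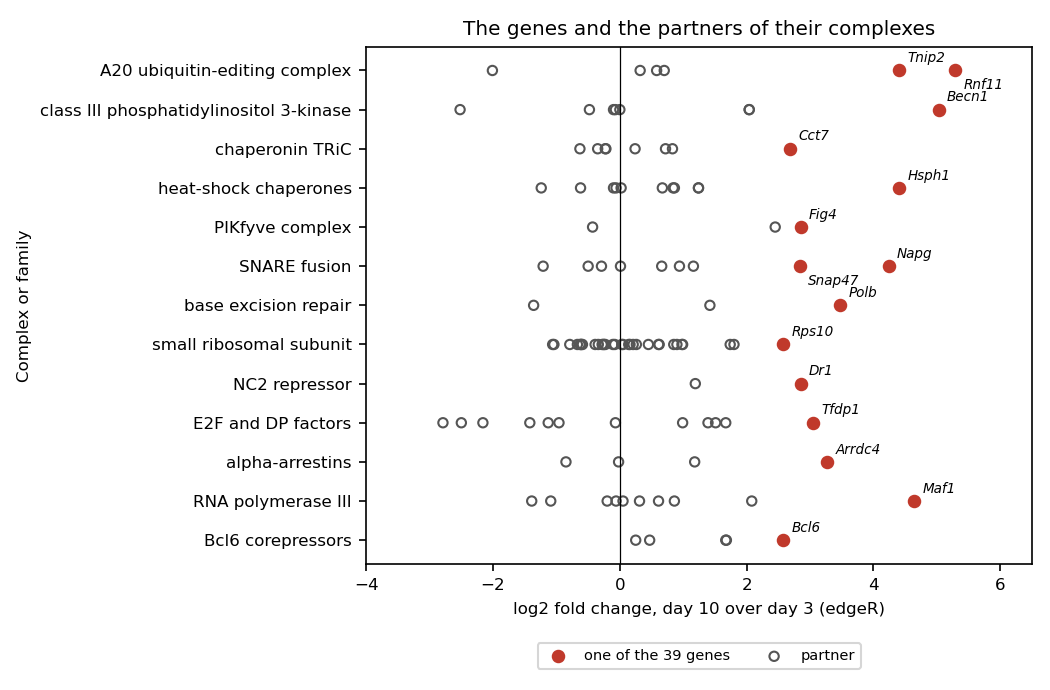
edgeR log2 fold change of day 10 over day 3 for those of the 39 genes that belong to one of 13 complexes or families (filled, named) and for the other tested genes of the same complex (open). The filled points lie between 2.57 (Bcl6) and 5.29 (Rnf11), and the open points lie on both sides of 0 with a median of 0.02.

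Promoter sequence was not used by the rule. RefSeq promoters of 250 bases before to 50 after the start were found for 30 of the 39 genes, in 41 windows, and each was searched on both strands. The E-box CACGTG, the site of basic helix-loop-helix factors such as MYC, USF, TFEB and MondoA, stood in 10 of the 30 (33.3%). It stood in 922 of 7536 tested genes with a promoter (12.2%), and in 343 of the 2580 that reached 10 CPM in every day 10 library (13.3%). Its 10 genes were Hsph1, Bcl6, Tbc1d15, Tfdp1, Otud1, Arrdc4, Dr1, Surf2, Arhgef18 and Ears2. The share is a description and was not tested, and whether any factor binds there was not measured. The stretches are shown because they place this motif in genes of different roles, with the E-box in capitals (5′ to 3′ on the gene's strand, RefSeq GRCm38.p6). That of Hsph1 is in its promoter above.
Bcl6, chr16:23988883-23988936, minus strand: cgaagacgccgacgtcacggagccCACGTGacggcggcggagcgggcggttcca
Tbc1d15, chr10:115251444-115251480, minus strand: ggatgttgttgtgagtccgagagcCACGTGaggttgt
Tfdp1, chr8:13338501-13338549, plus strand: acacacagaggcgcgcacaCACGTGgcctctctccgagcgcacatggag
Otud1, chr2:19657653-19657706, plus strand: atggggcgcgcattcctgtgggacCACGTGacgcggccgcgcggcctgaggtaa
Arrdc4, chr7:68749402-68749455, minus strand: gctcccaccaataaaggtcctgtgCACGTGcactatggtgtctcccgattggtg
Dr1, chr5:108268672-108268725, plus strand: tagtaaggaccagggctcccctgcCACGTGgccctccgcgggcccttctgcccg
Surf2, chr2:26916364-26916417, plus strand: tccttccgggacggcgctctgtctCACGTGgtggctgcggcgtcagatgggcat
Arhgef18, chr8:3392787-3392840, plus strand: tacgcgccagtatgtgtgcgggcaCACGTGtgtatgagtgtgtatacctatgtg
Ears2, chr7:122067037-122067089, minus strand: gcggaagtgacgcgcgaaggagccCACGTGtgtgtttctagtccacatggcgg
The E-box began 60 bases before the start in Bcl6, 54 before it in Otud1 and 20 before it in Surf2. It lay 231 before the start in Tfdp1, 201 in Dr1, 197 in Arhgef18 and 193 in Arrdc4, and 37 and 21 after it in Tbc1d15 and Ears2. A gene was counted if any of its windows held the motif. Bcl6, Tfdp1 and Arhgef18 each have a further window, at another start, without the E-box. In Hsph1 it began 2 bases after the start shown above and 19 before another annotated start.

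The other motifs were set beside their shares in the same way. The hypoxia element ACGTG, which every CACGTG contains, stood in 13 of the 30 genes (43.3%), against 30.1% of the tested genes. The interferon element core GAAANNGAA stood in 5 (16.7%), against 9.17%, in Stra13, Dr1, Fig4, Gprasp1 and Mink1. The gamma-activated site TTCNNNGAA stood in 2 (6.67%), Bcl6 and Tnip2, against 8.13%, and TATAAA in Cp alone (3.33%), against 8.51%. The NF-kappaB motif GGGANTTTC, the AP-1 motifs TGACTCA and TGAGTCA, the sterol motif TCACNCCAC and the PU.1 motif GAGGAAGT stood in none, against 1.11, 4.23, 1.35 and 4.09% of the tested genes. The ratio of observed to expected CpG had a median of 0.791 in the windows of the 39 genes, and of 0.772 in those of the tested genes.

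**Figure D5:**
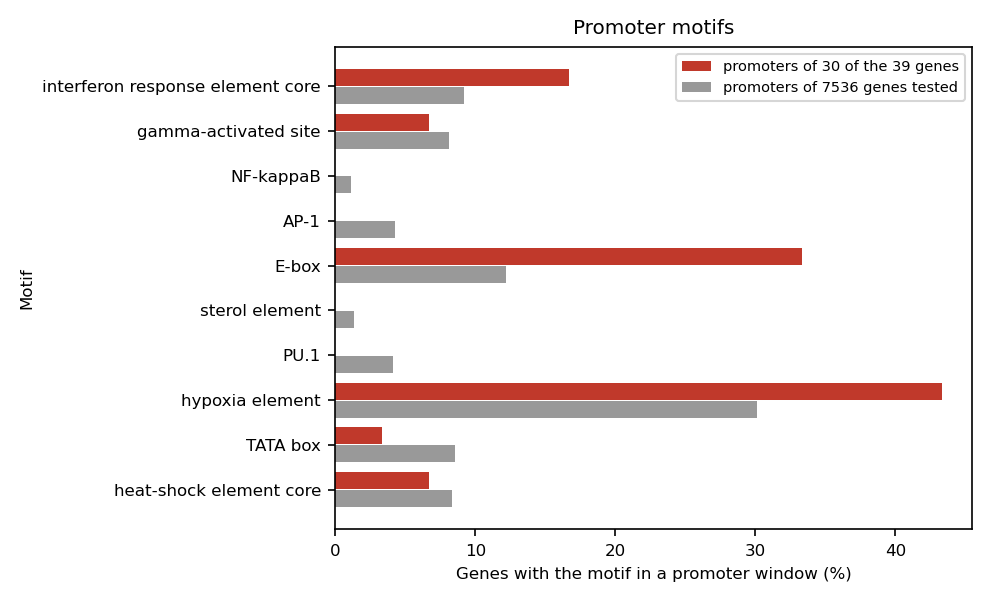
Share of genes with each motif in a promoter window of 300 bases, in percent, for the 30 of the 39 genes with a window and for the 7536 tested genes with one. The E-box bar stands at 33.3% for the 39 genes and 12.2% for the tested genes, and 4 of the motifs are at 0 in the 39 genes.

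The 39 genes lay on 19 chromosomes, with at most 5 on any of them, and had a median exon length of 5152 bases, beside 6556 for the 3210 genes. Exons of 17 of the 39 (43.6%) overlap those of another annotated gene, beside 36.4% of the tested genes, and no source used here gives the strand of the libraries. Reads in such exons cannot be placed in 1 gene by position, so the values of those 17 are uncertain in that respect. The overlap was widest in Becn1 (43.9% of its exon bases), Ssbp2 (22.1%) and Rps10 (20.6%). In Snap47, Chfr and Gprasp1 it was 11.6, 9.62 and 5.62%. For Ssbp2, the overlapping 4833422C13Rik had 23.1, 9.75 and 0 CPM at day 10, against 0.77, 0.143 and 0.217 CPM at day 3. It was lowest in the library where Ssbp2 was highest. In day 10 replicates 1 and 2 it was above every day 3 library, and replicate 2 gave the Ssbp2 value that the rule used. The part of the overlap in the Ssbp2 values was not tested. Rps10 also belongs to a ribosomal protein family with many processed copies, so its count may be split between near-identical sequences.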

How the data were processed

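Polyadenylated RNA was sequenced from 6 libraries, 3 at LPC day 10 and 3 at LPC day 3, grouped by the titles. The authors deposited raw counts per Ensembl gene (24984 genes), log2 normalized values, FPKM per gene and the log2 fold changes of their own comparison. The authors also deposited an unadjusted p-value for each gene, which was not used. The genome build was GRCm38 and the tools included limma 3.30.8, edgeR 3.16.5, R 3.3.2 and STAR 2.5.2a, per the submitters' processing notes. How reads were counted, and on which annotation, was not given in the sources used here. Columns of the FPKM table carry the time point only. The deposited fold changes had r = −0.996 across genes with day 10 minus day 3 of the normalized values, so their sign is day 3 minus day 10.

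CPM was the count over the column total. Symbols came from the FPKM table (24969 of 24984 identifiers). March3 stood there as a date, as did 22 symbols in all, and was named from the reference's gene table. Positions are from GENCODE M21 (GRCm38). Library totals ran from 5890081 to 9212197 counts, and 3 counts correspond to 0.326 to 0.509 CPM. Totals are counts assigned to genes; cDNA was amplified and the labels name no molecular identifiers, so reads are not separate molecules.

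Counts were fitted with edgeR 4.0.16 in R 4.3.3 (TMM, filterByExpr with a minimum count of 10, quasi-likelihood F-test, group only, Benjamini-Hochberg over 10535 genes). The SE is the absolute log2 fold change over the square root of F. The fit was tested on simulated data, where it called none of the genes with the smaller changes. A gene that was not called is therefore not read as unchanged. Alternatives were other limits of the rule, RLE and library-size scaling, totals without mitochondrial genes, no filter or 1 CPM in 3 libraries, DESeq2 1.42.0, limma-voom 3.58.1, the replicate number as a block, and leaving out each library. Figures used matplotlib 3.10.9.

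The 39 genes, the lists and the motifs were chosen with earlier results of these data known. Of the 39, 1 gene is counted but not reported here. By the rule for named genes every other gene of the 39 was named in a role, with values for the 15 of largest ratio of lowest day 10 to highest day 3 CPM, for any in a list, and for the 4 genes on each side of each limit; values of further genes, the complex partners and the heat-shock motif were added after the values were seen. The 8 genes that met the limits but were left out by symbol are not described.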

Additional observations from a re-analysis of the deposited data

How the results depend on the processing

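With the limits changed, 21 genes met the rule at a lowest day 10 level of 20 CPM, 85 at a ratio of 1.5 and 11 at a ratio of 3. Leaving out each library in turn gave 68 to 237 genes, the most without LPC day 10 replicate 3; with TMM-scaled CPM and without that library, a setting chosen after seeing the data, 159 passed, 24 of them among the 39. All 39 passed in each of the 6 column-total settings that leave out a library, as the rule then has fewer values to meet. The 12 genes called higher by edgeR became 0 with RLE, library size only, limma-voom or the replicate block, 113 with no low-count filter, 20 with the 1 CPM filter and 45 with DESeq2. Calls higher ran from 1 to 208 when a library was left out, with 1 without LPC day 10 replicate 3, 208 without replicate 1 and 169 without replicate 2. Calls without LPC day 3 replicates 1, 2 and 3 numbered 36, 41 and 26. The 0 genes called lower became 5 with no filter, 1 with the 1 CPM filter, 19 with DESeq2 and 1 with limma-voom, and 0 to 4 when a library was left out. The cause of these differences was not tested. The libraries that chose the 39 genes also gave the calls among them, so those calls are no test of the genes. Of the 39 genes, edgeR called 0, DESeq2 6, limma-voom 0 and edgeR without a filter 8. Without LPC day 10 replicate 1, 2 or 3, edgeR called 15, 15 and 0 of them. Their median log2 fold change of 3.59 ran from 2.24 to 4.07 when a library was left out, the lowest without LPC day 10 replicate 3. RLE moved the median of all genes by 0.13, no filter by 0.22 and the replicate block by −0.13. Of 507 refits of single genes, all kept a positive sign, which follows largely from the choice of the genes. In 57 of these refits the log2 fold change moved by at least the gene's within-group SD of log2 CPM. Of those 57, 27 were refits without LPC day 10 replicate 3. The replicate numbers share only a number: same-numbered deviations correlated at 0.0733, −0.0351 and 0.00727, and the block took the calls higher to 0. Low counts at day 3 limit the ratios, since 3 of the 39 genes had no count in LPC day 3 replicate 3.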
